A study of Mus musculus with 8 samples.

Results

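The NKG2D ligand genes of the mouse were followed across 4 tumour cell lines of lung squamous cell carcinoma (LUSC), each grown from an engineered mouse model. The 5 genes H60c, H60b, Raet1d, Raet1e and Ulbp1 were taken by name from 55487 genes measured. They were chosen by name with their measured levels already known, H60c being higher and Ulbp1 lower in one line family, so their values between the families are a description without a test. The lines PLA4 and PLA form the PLA family and PL12 and PL1 the PL family, with 2 libraries of each line and 8 libraries in all. All groups are lines of LUSC origin with no treatment named, and the study asks about the loss of ACKR3, a receptor that scavenges chemokines. The labels do not spell out the letters of the names, the remaining alleles, the strain or whether a line is 1 clone. Whether both libraries of each line stem from different cultures is not stated. The p-values therefore rest on a spread between libraries that may be technical. In bulk RNA, fewer cells that express a gene and less RNA per cell cannot be told apart.

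NKG2D is an activating receptor of natural killer (NK) cells and some T cells, encoded by Klrk1, that signals through the adaptors Hcst and, in the mouse, Tyrobp. Its ligands are relatives of MHC class I that healthy cells mostly keep low and that stress, DNA damage and proliferation can raise, so that a tumour cell bearing them can be recognised. The mouse has an H60 family, a Raet1 (Rae-1) family and MULT1, the product of Ulbp1. H60c is known from skin keratinocytes and engages NKG2D on epidermal T cells. Raet1 proteins are held by a lipid anchor, and MULT1 crosses the membrane and is turned over through ubiquitin ligases. Mouse strains carry different H60 and Raet1 genes, and the values here rest on the genes of the C57BL/6J assembly. No genes named H60a, Raet1a, Raet1b or Raet1c were found among the genes measured, so they were not analysed here.

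All 5 genes lie on chromosome 10 of GRCm38 in the GENCODE annotation and are protein coding. H60c (ENSMUSG00000091618.3, minus strand) spans 3256208 to 3267771, and Ulbp1 (ENSMUSG00000079685.10, minus strand) spans 7440362 to 7473638. Raet1e (ENSMUSG00000053219.15, plus strand, 22158569 to 22374139) spans both H60b (ENSMUSG00000075297.10, plus strand, 22158586 to 22288849) and Raet1d (ENSMUSG00000078452.10, plus strand, 22360552 to 22374139). Of all 50-base stretches in annotated Raet1d transcripts, 55.8% also occurred in Raet1e transcripts, and 7.58% of those of H60b did. Reads from these stretches cannot be told apart, so the division of counts between Raet1d and Raet1e, and to a lesser extent H60b, is uncertain. H60c and Ulbp1 transcripts shared 0% of such stretches with any other member.

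The start regions are shown because H60c and Ulbp1 stood in opposite directions, and because those of Raet1d and the second Raet1e start are near copies. RefSeq start regions (GRCm38.p6, 250 bases before to 50 after the start, 5′ to 3′ on the gene's strand) were found for 4 of the 5 members, and for Raet1e at 2 starts. Capitals mark exact matches on either strand to the CCAAT box (CCAAT), the GC box (GGGCGG) or an E2F-type motif (TTNNCGC). The regions are chr10:3267722-3268021 (minus strand) for H60c, chr10:7473428-7473727 (minus strand) for Ulbp1, chr10:22173247-22173546 (plus strand) for the second Raet1e start and chr10:22361644-22361943 (plus strand) for Raet1d.
H60c: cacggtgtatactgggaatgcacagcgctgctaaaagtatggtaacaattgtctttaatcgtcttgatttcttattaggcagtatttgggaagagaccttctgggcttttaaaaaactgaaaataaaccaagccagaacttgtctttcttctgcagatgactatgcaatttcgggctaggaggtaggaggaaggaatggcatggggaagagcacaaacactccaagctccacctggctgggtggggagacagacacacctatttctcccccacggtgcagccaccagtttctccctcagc
Ulbp1: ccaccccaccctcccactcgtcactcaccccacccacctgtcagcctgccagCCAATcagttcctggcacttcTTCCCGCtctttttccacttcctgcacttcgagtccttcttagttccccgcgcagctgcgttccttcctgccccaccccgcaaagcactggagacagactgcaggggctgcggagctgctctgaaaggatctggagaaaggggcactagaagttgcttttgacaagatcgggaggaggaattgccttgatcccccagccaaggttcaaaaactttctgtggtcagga
Raet1e, second start: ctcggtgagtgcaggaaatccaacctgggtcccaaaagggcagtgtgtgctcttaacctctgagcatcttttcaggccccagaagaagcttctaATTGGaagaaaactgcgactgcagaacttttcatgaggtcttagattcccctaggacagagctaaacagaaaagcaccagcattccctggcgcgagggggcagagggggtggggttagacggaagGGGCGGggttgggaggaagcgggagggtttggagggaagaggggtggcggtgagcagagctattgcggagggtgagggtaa
Raet1d: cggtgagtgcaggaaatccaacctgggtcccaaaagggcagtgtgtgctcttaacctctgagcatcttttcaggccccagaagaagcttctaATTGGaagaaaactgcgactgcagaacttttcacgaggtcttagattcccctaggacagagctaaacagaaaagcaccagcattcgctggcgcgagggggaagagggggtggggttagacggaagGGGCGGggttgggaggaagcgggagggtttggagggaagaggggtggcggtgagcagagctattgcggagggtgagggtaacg

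The second Raet1e region and the Raet1d region were identical at 97.7% of aligned positions, while those of H60c and Ulbp1 were identical at 47.9%. The first Raet1e region was identical to that of Raet1d at 45%. Ulbp1 held 1 CCAAT match and 1 E2F-type match, the 2 Raet1 regions shown held 1 CCAAT and 1 GC box match each, and the first Raet1e region (not shown) held 3 GC box matches. H60c held 0 matches to any motif searched. CCAAT occurred in 37.4% of 32851 RefSeq start regions, GGGCGG in 35.7% and TTNNCGC in 20.2%. The TATA box (TATAAA, 13.6% of regions), AP-1 (TGANTCA, 7.81%), the cAMP response element (TGACGTCA, 1.79%) and the E-box (CACGTG, 7.15%) had 0 matches in all 5 regions. GC content was 47.3% for H60c, 57.3% for Ulbp1 and 65.3% for the first Raet1e start, against a median of 52.7% over all regions. These matches are a description of letters in a window.

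The libraries held 48857912 to 142458240 counts, and 12016 to 12507 genes reached 1 CPM (counts relative to the TMM-scaled library size). Ackr3, which checks the names, stood at 0.0254 to 0.387 CPM in the PLA libraries and 25.3 to 86.3 CPM in the PL libraries. Epithelial Cdh1 was at 677 to 798 CPM in the line means, while the 9 squamous markers summed to 15300 to 23300 CPM in the PLA libraries, 3150 and 3220 CPM in PL12 and 10800 and 19300 CPM in PL1. Of 10 immune markers, Cd3e and Ncr1 had 0 counts, and the sum was 4.96 to 84.1 CPM in the PLA libraries and 3.47 to 24.9 CPM in the PL libraries, with Itgam at 51.5 and 48.1 CPM in PLA. The 7 fibroblast markers summed to 282 CPM in PL1 replicate 2 and to 0.753 to 10.4 CPM elsewhere. The libraries of PLA4 and of PL1 lay far apart: 14.6% and 13.4% of 18648 genes were over 2-fold apart on log2(CPM + 0.1), against 0.611% in PLA and 2.82% in PL12. The part of these differences in the results below was not tested.

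H60c, the keratinocyte ligand, was high in the PLA lines and low in the PL lines. In PLA4 its libraries held 25.8 and 80.9 CPM, in PLA 95.1 and 90.2 CPM, in PL12 8.45 and 6.94 CPM and in PL1 2.14 and 1.92 CPM. Every PLA-family library lay above every PL-family library, and the lowest of the PLA family, PLA4 replicate 1, was 1.61 above the highest of the PL family on the log2 scale. The line means were 73.0 ± 27.8 CPM for the PLA family against 4.86 ± 4.01 CPM for the PL family (SD, n = 2 lines each), a 15-fold higher level or 3.91 on the log2 scale. Across the 4 pairs of lines the ratio ran from 6.93-fold for PLA4 over PL12 to 45.6-fold for PLA over PL1. The order of line means was PLA, PLA4, PL12 and PL1, with both PLA4 libraries below both PLA libraries. PLA4 averaged 53.4 ± 39.0 CPM and PLA 92.6 ± 3.45 CPM (SD, n = 2 each), a difference about as large as the SD of the PLA4 libraries.

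Ulbp1, the gene of MULT1, was low in the PLA lines and high in the PL lines, with PLA4 the lowest line. It stood at 3.41 and 2.05 CPM in PLA4, 32.6 and 31.8 CPM in PLA, 149 and 129 CPM in PL12 and 210 and 125 CPM in PL1. The libraries of the families did not overlap, and the closest of them, PL1 replicate 2 and PLA replicate 1, were 1.94 apart on the log2 scale. The line means were 17.5 ± 20.8 CPM for the PLA family against 153 ± 20.4 CPM for the PL family (SD, n = 2 lines each), a difference of -3.13 on the log2 scale. PLA4 lay furthest from the PL lines, with levels 50.9-fold below PL12 and 61.5-fold below PL1, while PLA lay 4.31-fold and 5.21-fold below them. PL12 and PL1 did not differ beyond the spread of the PL1 libraries.

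Raet1e, a Rae-1 gene, was present in all lines at closer levels. Its libraries held 1.18 and 10.5 CPM in PLA4, 11.1 and 10 CPM in PLA, 22.3 and 21.8 CPM in PL12 and 14.4 and 12.9 CPM in PL1. PLA4 replicate 1 stood apart from the other 7. The families did not overlap, but the highest PLA library and the lowest PL library were 0.22 apart on the log2 scale. The line means were 8.20 ± 3.33 CPM for the PLA family against 17.8 ± 5.94 CPM for the PL family (SD, n = 2 lines each), or -1.12 on the log2 scale. Without PLA4 replicate 1 that difference was -0.76, and without PLA4 replicate 2 it was -1.60.

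Raet1d and H60b were the lowest members, and 3 counts, taken as the floor, correspond to 0.0208 to 0.0614 CPM. Raet1d was above 3 counts in 5 of 8 libraries. Raet1d had 2 and 14 counts in PLA4, 2 and 7 in PLA, 9 and 25 in PL12 and 0 and 13 in PL1. The families overlapped, and part of these estimated counts could belong to Raet1e. H60b had 0 and 1 counts in PLA4, 0 and 2 in PLA, 24 and 46 in PL12 and 1 and 1 in PL1. It was thus detected above 3 counts in PL12 and in no other line, at 0.491 and 0.423 CPM. The pooled ratio of the PLA lines over the PL lines was 0.029 for H60b (3 against 72 counts) and 0.37 for Raet1d (25 against 47 counts). Of the 72 H60b counts in the PL lines, 70 were in PL12, and of the 47 Raet1d counts 34 were. No interval is given, since the members were chosen with this contrast known.

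**Figure D1:**
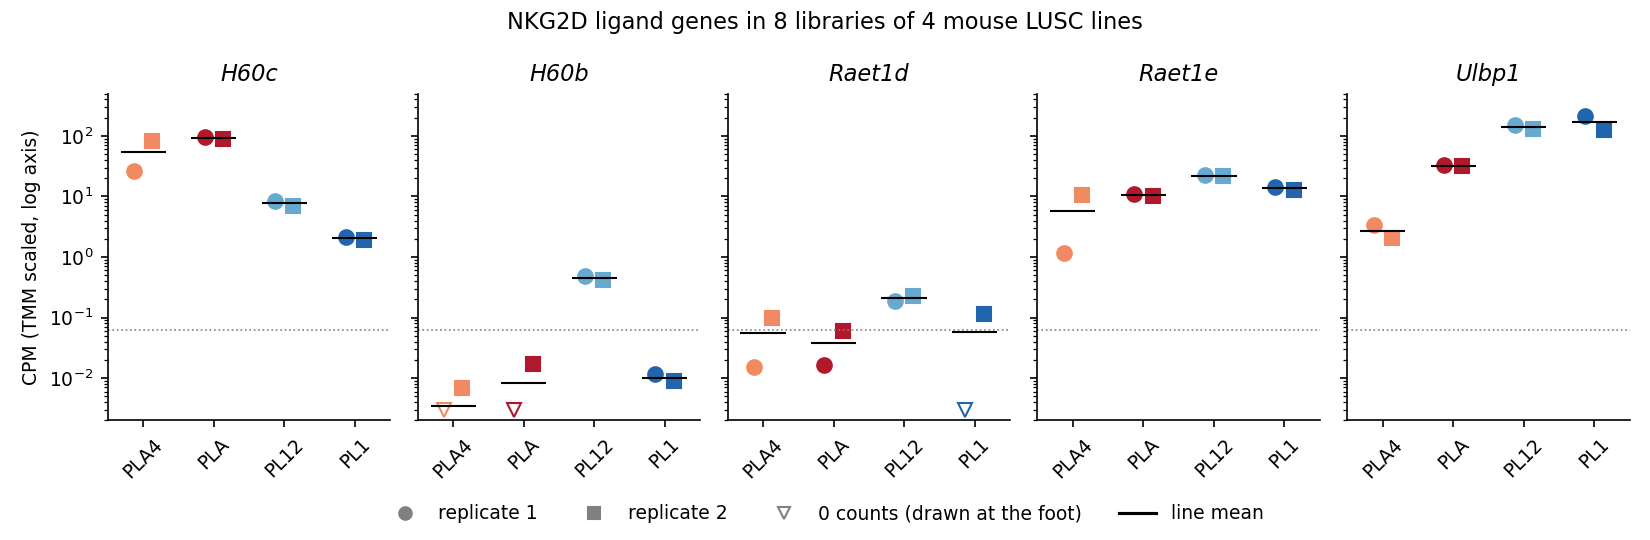
Levels of the 5 genes in CPM on a log axis, by line, with circles for replicate 1, squares for replicate 2, open triangles at the foot for 0 counts and bars for line means. The dotted line marks 0.0614 CPM, 3 counts in the shallowest library. H60c is high in PLA4 and PLA, Ulbp1 in PL12 and PL1, and H60b lies above the dotted line in PL12 only.

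Of the 5 genes, 3 had non-overlapping families, 1 with the PLA lines higher and 2 lower. Over all 18648 genes tested, 15.7% did so, 8.56% higher and 7.18% lower in the PLA lines. Since the members were chosen with this contrast known, nothing is read from their share. Among the same genes 1.99% were called in all 4 pairings of lines across the families (edgeR, adjusted p under 0.05 with the same sign). On counts summed within each line, 0 of 18859 genes passed in edgeR. There 867 genes (4.6%) had an unadjusted p under 0.05, and DESeq2 called 348 (1.85%).

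TPM, which accounts for transcript length, allows the members to be set beside each other within a library. H60c made up 86.6% and 78.8% of the summed TPM of the 5 genes in PLA4 and 67.2% and 67.9% in PLA. It made up 6% and 4.46% in PL12 and 1.13% and 1.86% in PL1. Ulbp1 made up 6.31% and 1.39% in PLA4, 18.2% and 17.5% in PLA, 66.2% and 66.9% in PL12 and 84.3% and 77.8% in PL1. The leading ligand transcript was therefore H60c in each of the 4 PLA-family libraries and Ulbp1 in each of the 4 PL-family libraries. Raet1e took 6.99% and 19.6% in PLA4, 14.6% and 14.4% in PLA, 26.6% and 27.5% in PL12 and 14.5% and 20.1% in PL1, and H60b and Raet1d together stayed minor, each under 1% in every library.

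The sum over the 5 genes differed less than its makeup. It was 17.7 and 58.3 TPM in PLA4, 83.7 and 76.3 TPM in PLA, 89.6 and 85.6 TPM in PL12 and 104 and 73.2 TPM in PL1. The line means averaged 59 ± 29.7 TPM for the PLA family against 88 ± 0.636 TPM for the PL family (SD, n = 2 lines each). PLA4 replicate 1 had the lowest sum, and PLA replicate 1 and PLA replicate 2 lay within the range of the PL libraries.

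**Figure D2:**
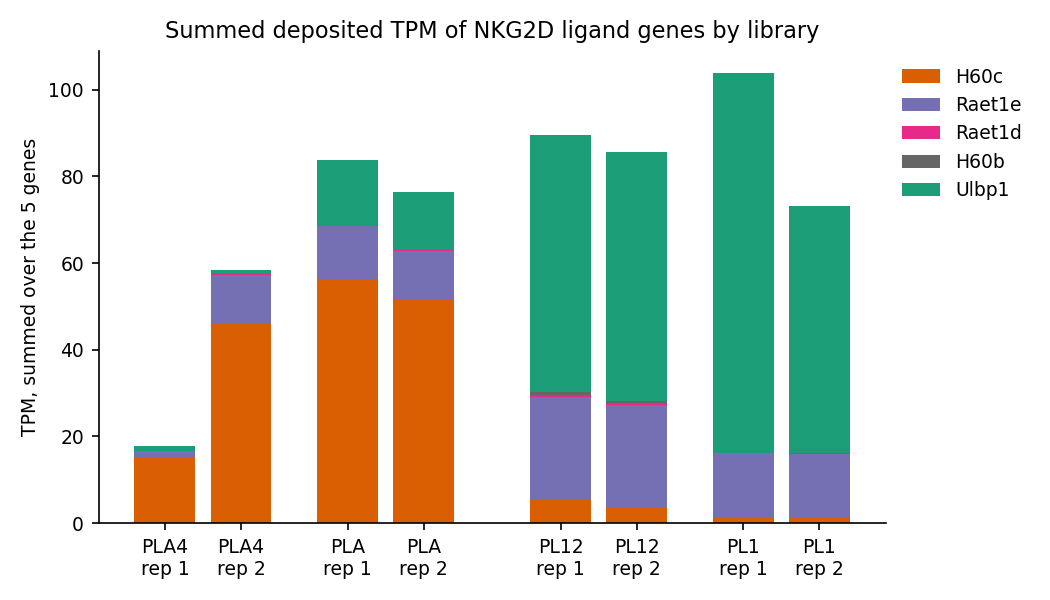
Deposited TPM of the 5 genes, stacked, for each library (rep is replicate). H60c fills most of the bar in PLA4 and PLA, Ulbp1 in PL12 and PL1, and the bar of PLA4 replicate 1 is the shortest at 17.7 TPM.

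The differences between lines of a family were not the stated reason for the choice, and they were tested in the 8-library edgeR fit. The levels were already known, so these tests may not be independent of the choice. Ulbp1 fell in PLA4 relative to PLA, by 11.8-fold (log2 fold change -3.56 ± 0.342 SE, adjusted p = 0.00184, edgeR). It passed in each alternative setting that kept all 8 libraries. Adjusted p there ran from 4.43e-22 in DESeq2 to 0.00342 in edgeR with a term for the replicate number. With 1 library left out, its log2 fold change ran from -3.97 to -3.17. Both PLA4 libraries lay below both PLA libraries. Of all genes, 29% were called between these lines and 14.9% were lower in PLA4, so a call between these lines is common. H60c (-0.80 ± 0.470, adjusted p = 0.248) and Raet1e (-0.85 ± 0.823, adjusted p = 0.47) did not pass in edgeR. Both turn on 1 library. Without PLA4 replicate 2, H60c was at -1.78 and Raet1e at -3.10, and without PLA4 replicate 1 they were at -0.19 and -0.01. A line with 1 library shows no spread of its own, so no p-value is given for these. H60b (adjusted p = 0.629) and Raet1d (adjusted p = 0.785) did not pass.

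Between the PL lines, H60c rose in PL12 relative to PL1, by 3.78-fold (log2 fold change 1.92 ± 0.496 SE, adjusted p = 0.0368, edgeR). Both PL12 libraries lay above both PL1 libraries, and 23.7% of all genes were called here, with 11.2% of all genes higher in PL12. The H60c call was lost without any 1 library of PL12, PL1 or PLA (adjusted p = 0.0764 to 0.161) at log2 fold changes of 1.77 to 2.05. H60b had 70 counts in PL12 and 2 in PL1, a ratio of 44.5, with a fitted log2 fold change of 5.35. H60b passed the filter on low counts through PL12, so a test here had to favour a difference and no p-value is given. Ulbp1 (-0.27 ± 0.307, adjusted p = 0.552), Raet1e (0.69 ± 0.820, adjusted p = 0.573) and Raet1d (adjusted p = 0.37) did not pass. Raet1e passed only in settings where PLA4 kept 1 library and so added nothing to the estimated spread. Without PLA4 replicate 1 or PLA4 replicate 2 it was at log2 fold changes of 0.69 and 0.71.

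The libraries of PLA4 differed for the ligands themselves. Raet1e was 8.93-fold and H60c 3.14-fold higher in replicate 2 than in replicate 1, while Ulbp1 was 1.66-fold higher in replicate 1. In PL1, H60c and Raet1e differed by 1.11-fold each and Ulbp1 by 1.67-fold, all higher in replicate 1. In PLA and PL12 none of these 3 genes differed by more than 1.22-fold between libraries.

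Noncoding and pseudogene loci inside the H60b span were low as well. Gm26581, a lincRNA on the same strand, stood at 0.164 and 0.129 CPM in PL12 and no higher than 0.0254 CPM elsewhere. Gm1972, a pseudogene, stood at 0.0409 and 0.0276 CPM in PL12 and had 0 counts in PLA4, PLA and PL1. Both were picked after their values were seen, and reads shared with H60b cannot be told apart from their own.

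The nearest tested protein-coding genes on chromosome 10 were taken, up to 3 on each side of each member. Of 15 such genes that are not ligands, 0 were called in all 4 line comparisons, beside 1.99% of all genes, a share that 15 genes are too few to differ from. The closest to H60c was Ppp1r14c, an inhibitor of protein phosphatase 1, at 45.4 and 15 CPM in PLA4 and PLA against 3.23 and 6.67 CPM in PL12 and PL1 (mean log2 fold change 2.49, largest adjusted p = 0.146, edgeR). The next, Plekhg1, was at 65.5 and 9.43 CPM against 5.54 and 45.2 CPM. Beside Ulbp1, Lrp11 was at 20.6 and 8.90 CPM in PLA4 and PLA against 15.5 and 20.5 CPM in PL12 and PL1, and Pcmt1, a protein repair methyltransferase, at 70.9 and 58.4 CPM against 62.8 and 58.6 CPM. Nearest to the Raet1 cluster was E030030I06Rik (largest adjusted p = 0.866, edgeR). It stood at 3.58 and 2.82 CPM in PLA4 and PLA against 1.63 and 3.37 CPM in PL12 and PL1. Sgk1, a serum-induced kinase further away, was at 406 and 72.1 CPM against 41.7 and 176 CPM (largest adjusted p = 0.14, edgeR).

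**Figure D3:**
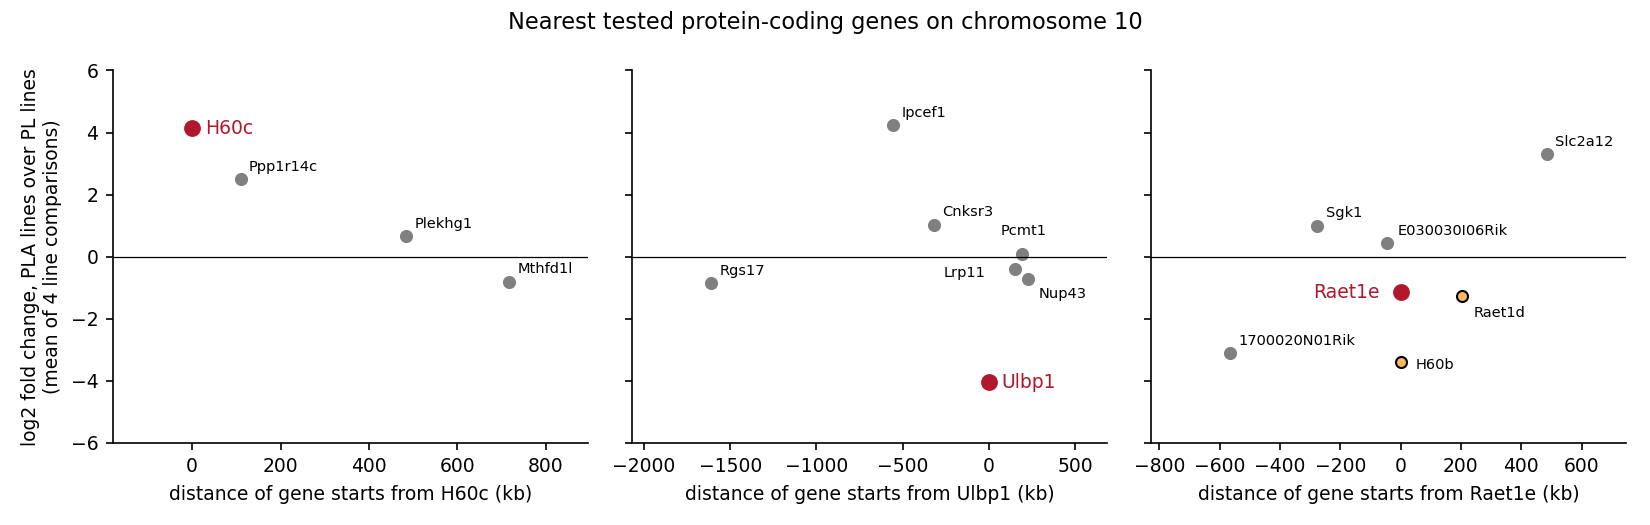
Fitted log2 fold change of the PLA lines over the PL lines (mean of the 4 line comparisons) against the distance between the lower ends of the annotated genes, in kb, for the nearest tested protein-coding genes around H60c, Ulbp1 and Raet1e. Red marks the named ligand, orange other ligands and grey the neighbours, whose values run from -3.12 to 4.24; for genes near 0 counts in a line the fitted value depends on the prior count.

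By root mean square difference of log2(CPM + 1), centred over the 8 libraries, the genes most like H60c among 11678 with a mean of at least 1 CPM were Ces1d, a carboxylesterase (0.70), Aldh1a3, a retinaldehyde dehydrogenase (0.87), and Ablim3, an actin-binding protein (0.88), against a median of 2.02 over all genes. Aldh1a3 stood at 14.0 and 27.4 CPM in PLA4 and PLA and at 4.20 and 2.07 CPM in PL12 and PL1. Most like Ulbp1 were Areg, an EGFR ligand (0.96), Ptgs2, the prostaglandin synthase COX-2 (1.03), and Etv4, an ETS factor (1.09), against a median of 2.26. Ptgs2 stood at 36.3 and 212 CPM in PLA4 and PLA and at 963 and 369 CPM in PL12 and PL1. Most like Raet1e were Mpzl1 (0.42), Foxn1, an epithelial forkhead factor (0.46), and Dipk2a (0.48), against a median of 1.10. Each of these 3 was lowest in PLA4 replicate 1, Mpzl1 at 6.08 CPM there and 40.6 CPM in PLA4 replicate 2. Raet1e was lowest in that library too, so picking genes for likeness over these same libraries favoured this. H60b and Raet1d were too low for this measure, since log2(CPM + 1) hardly varies at their levels.

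The receptor side was absent. Hcst and Tyrobp had 0 counts in all 8 libraries, and Klrk1 reached 0.00919 CPM, 1 count, in PL12 replicate 2 and had 0 counts in the other 7. None of the 3 passed the filter on low counts.

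Among 18 regulators linked to ligand transcription, 5 had a positive mean log2 fold change in the PLA lines over the PL lines, with a median of -0.38, beside 9560 positive of 18648 genes and a median of 0.02. Chek1, the checkpoint kinase downstream of ATR, was called lower in all 4 line comparisons, 1 of 18 beside 0.767% of all genes. It stood at 10.3 and 3.84 CPM in PLA4 and PLA against 33.1 and 18.8 CPM in PL12 and PL1, with non-overlapping libraries (mean log2 fold change -1.99, largest adjusted p = 0.0312, edgeR). Its call was lost without PLA4 replicate 1 or without any 1 library of PLA or PL12. On counts summed per line Chek1 did not pass (adjusted p = 0.852, edgeR). Atr, the replication stress kinase, was at 31.9 and 25.2 CPM against 73.8 and 44.8 CPM (largest adjusted p = 0.12), and Nfkb1, an NF-kB subunit, at 162 and 158 CPM against 271 and 238 CPM (largest adjusted p = 0.11, edgeR). Trp53, whose product is p53, was measured at 161 and 92.9 CPM against 133 and 192 CPM, and the cell cycle factor E2f1 at 16.5 and 15.8 CPM against 31.5 and 20.4 CPM.

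Within the families more of these 18 regulators were called, as were more of all genes. Of all genes 29% were called between PLA4 and PLA and 23.7% between PL12 and PL1, against 1.99% in all 4 line comparisons. Between PLA4 and PLA, 6 rose in PLA4 (Atm, Chek1, Trp53, E2f2, E2f3 and Mycn) and Junb fell, beside 14.1% and 14.9% of all genes. Junb, an AP-1 subunit, stood at 167 CPM in PLA4 against 339 CPM in PLA (log2 fold change -1.03 ± 0.186 SE, adjusted p = 0.0107, edgeR). Between PL12 and PL1, 4 rose in PL12 (Atr, Chek1, E2f1 and Myc) and Junb fell, beside 11.2% and 12.5% of all genes. With 1 library left out, these counts of 7 and 5 called regulators ran from 1 to 9 and from 0 to 6.

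Of 8 genes of ligand shedding and turnover, 3 had a positive mean log2 fold change, with a median of -0.05. Pdia6, a disulphide isomerase that takes part in the shedding of the human ligand MICA, was called lower in all 4 line comparisons, 1 of 8 beside 0.767% of all genes, at 137 and 140 CPM in PLA4 and PLA against 324 and 232 CPM in PL12 and PL1 (mean log2 fold change -0.98, largest adjusted p = 0.0206, edgeR). The call was lost without any 1 library of PLA or PL12, and on counts summed per line Pdia6 did not pass (adjusted p = 0.852, edgeR). The sheddase Adam17 was at 74.6 and 137 CPM against 124 and 115 CPM (largest adjusted p = 0.609), and the matrix protease Mmp2 at 2.69 and 1.91 CPM against 0.103 and 3.15 CPM (largest adjusted p = 0.84, edgeR). Marchf4 and Marchf9 encode ubiquitin ligases that lower MULT1 protein in mouse cells. Marchf9 was at 31.4 and 46.6 CPM in PLA4 and PLA against 29.6 and 25.2 CPM in PL12 and PL1. It was not called across the families (largest adjusted p = 0.86) or between PLA4 and PLA (adjusted p = 0.219, edgeR). Marchf4 stood at 0.952 and 0.145 CPM in PLA4, 7.07 and 7.52 CPM in PLA, 0.327 and 0.239 CPM in PL12 and 0.817 and 0.485 CPM in PL1. It fell in PLA4 relative to PLA (log2 fold change -3.73 ± 0.856 SE, adjusted p = 0.0217, edgeR), as did Adam17, 2 of 8 beside 14.9% of all genes, and both calls were lost without replicate 1 or replicate 2 of PLA. Between PL12 and PL1, Pdia6 rose and Mmp2 fell in PL12, beside 11.2% and 12.5% of all genes, and both calls were lost without replicate 1 or replicate 2 of PL12. With 1 library left out, these counts of 2 and 2 ran from 0 to 3 and from 0 to 2. The first was also down to 1 without replicate 1 or replicate 2 of PL12. The second was also down to 1 without replicate 1 or replicate 2 of PLA.

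Of 15 other ligands that NK cells read, 14 were tested, and 10 had a positive mean log2 fold change with a median of 0.41. H2-T23, the heavy chain of Qa-1, which presents to the receptor NKG2A, was called higher in all 4 line comparisons, 1 of 14 beside 1.23% of all genes. It stood at 199 and 241 CPM in PLA4 and PLA against 32.8 and 74.4 CPM in PL12 and PL1, with non-overlapping libraries (mean log2 fold change 2.15, largest adjusted p = 0.00623, edgeR). It passed in each alternative of this fit on single libraries that kept all 8 libraries. The largest adjusted p there was 0.0222, in edgeR with a term for the replicate number. With 1 library left out, its mean log2 fold change ran from 2.06 to 2.20. On counts summed per line, where the line is the replicate, it did not pass (adjusted p = 0.852, edgeR). Pvr, the ligand of DNAM-1, was at 10.4 and 10.1 CPM against 44.6 and 17.8 CPM (largest adjusted p = 0.207), and the adhesion molecule Cadm1 at 105 and 243 CPM against 85 and 161 CPM (largest adjusted p = 0.204, edgeR). Cd48 had 0 counts in every library.

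Within the PLA family, 5 of these ligands fell in PLA4 relative to PLA, Cadm1, Icam1, H2-K1, H2-D1 and B2m, and Nectin3 rose, beside 14.9% and 14.1% of all genes. Icam1, an adhesion ligand of LFA-1, held 9.45 and 10.8 CPM in PLA4 against 105 and 102 CPM in PLA (log2 fold change -3.35 ± 0.234 SE, adjusted p = 8e-04, edgeR). H2-K1, an MHC class I heavy chain that restrains NK cells, held 48.8 and 13.5 CPM in PLA4 against 852 and 809 CPM in PLA (-4.74 ± 0.941 SE, adjusted p = 0.0139, edgeR). Between PL12 and PL1, Pvr and Icam1 rose in PL12 and Nectin1, Cadm1, Fas and H2-T23 fell, beside 11.2% and 12.5% of all genes. With 1 library left out, these counts of 6 and 6 ran from 1 to 8 and from 2 to 7.

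**Figure D4:**
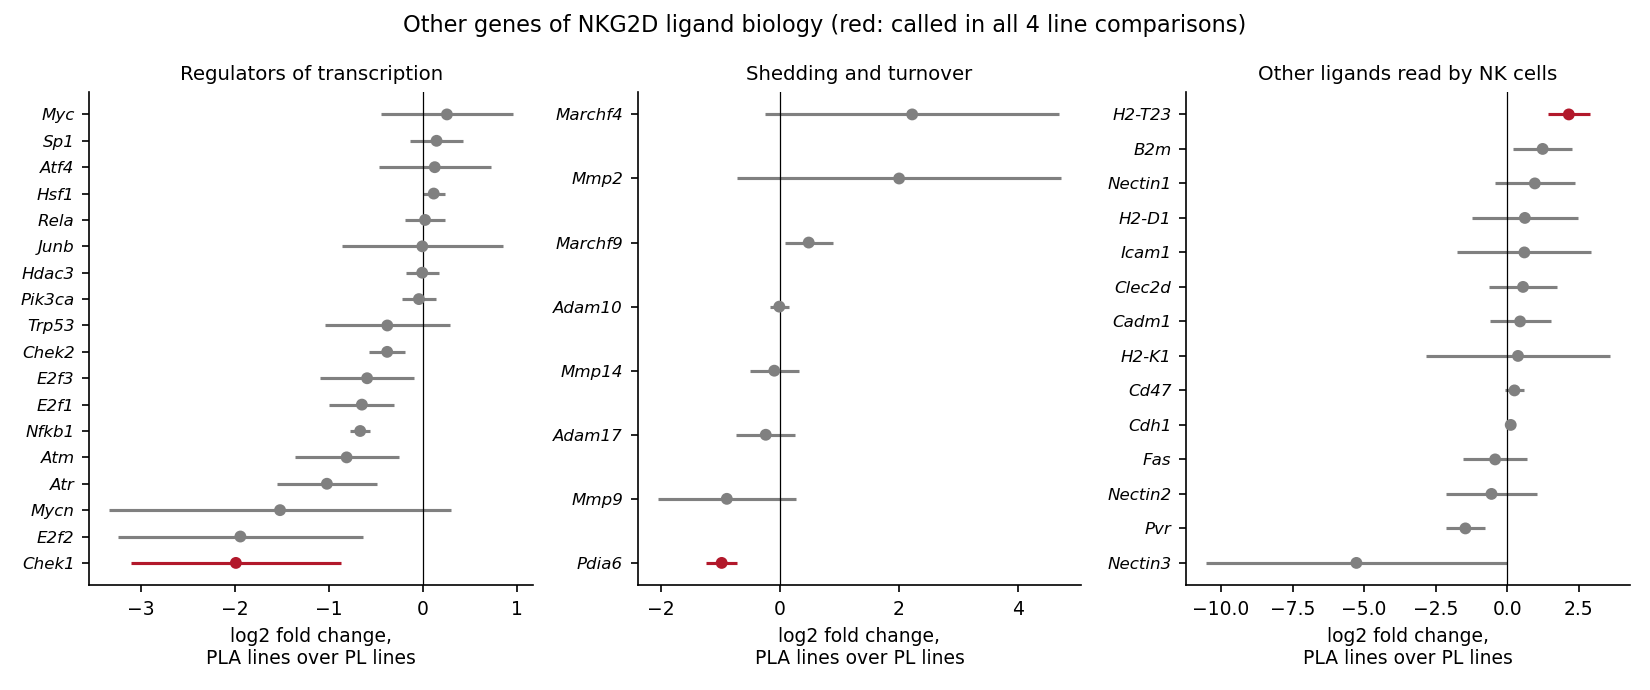
Fitted log2 fold change of the PLA lines over the PL lines for the tested genes of each list, with the mean of the 4 line comparisons as points and their range as bars. Red marks Chek1, Pdia6 and H2-T23, called in all 4 comparisons, and the value of Nectin3, near 0 counts in PLA, depends on the prior count.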

How the data were processed

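RNA was sequenced from 4 mouse LUSC lines with 2 libraries each, made with SMARTer cDNA and Nextera XT, per the labels' protocols. The authors deposited a table of expected counts (estimates that can be fractional) and a table of TPM, as the file headers show. The tools in the submitters' processing notes are STAR, RSEM, FastQC and DESeq2, and the build is GRCm38. Versions, roles and the annotation release are not given in the sources used here. Of the expected counts, 14.2% were not whole, and they were rounded. RSEM-type estimates divide reads shared by related genes, which bears on Raet1d, Raet1e and H60b.

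Counts were tested with edgeR 4.0.16 (quasi-likelihood, TMM, filterByExpr with minimum count 10 and minimum total 15, R 4.3.3) with 1 mean per line on 18648 genes, all 5 members among them, and with Benjamini-Hochberg adjustment at 0.05 over all genes. A gene was called between families where it passed with the same sign in all 4 line comparisons. A second fit used counts summed per line (18859 genes). DESeq2 1.42.0 was an alternative. Standard errors come from the F statistic. The fits were run on simulated data with 200 changed genes and the same spread for all genes and libraries. The unequal spread of these lines was not simulated, so the accuracy of the fits here is not known from it. Coordinates are from GENCODE M21 on GRCm38 (55141 of 55487 identifiers matched without version).

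Same-numbered libraries of different lines did not deviate together, so the numbers were not used as pairs. The members and lists were chosen with earlier results of these data known. A gene of the regulator list is not reported here and was left out of its counts. Genes named from a list were those called in all 4 comparisons and the 2 with the next smallest p. Those called within a family, Marchf9, Trp53, E2f1 and loci inside H60b were named after their values were seen.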

Additional observations from a re-analysis of the deposited data

Results flagged for a closer look

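Raet1e stood at 1.18 CPM in PLA4 replicate 1, far below the other 3 libraries of the PLA lines, and the gap took up 0.898 of their whole range, above Dixon's 95% critical value for 4 samples. The other libraries held 10.5 CPM in PLA4 replicate 2 and 11.1 and 10 CPM in PLA. This was 1 of 10 groups examined, and chance flags about 1 group in 20. The 4 libraries come from 2 lines, so they are not 4 independent samples.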

How the results depend on the processing

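Between families, H60c kept its direction under all 13 alternatives (log2 ratio 3.61 to 4.16), Ulbp1 (-3.99 to -2.92) and Raet1e (-1.60 to -0.76) likewise. Raet1d moved to -0.11 on log2(CPM + 1), where low levels are compressed, and ran from -2.31 to -0.97 with 1 library left out. Genes called in all 4 comparisons numbered 372, and 831 with DESeq2, 132 with the replicate block, 36 to 763 with 1 library left out, 2446 without PL1 replicate 1 and PLA4 replicate 2, and 2072 without PL1 replicate 2 and PLA4 replicate 1. In the same 2 settings PLA4 against PLA gave 10733 and 10981 genes and PL12 against PL1 gave 10066 and 9927, where 5414 and 4419 were called with all libraries. With 1 library left out they gave 1051 to 6618 and 763 to 6128. A line left with 1 library adds nothing to the spread estimated from single libraries, so these counts do not measure the spread of that line. Summed profiles gave 0 genes, 1 without a filter, 348 with DESeq2 and 0 to 0 with 1 library left out.

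For PLA4 against PLA, leaving out 1 library gave H60c -1.78 to -0.19, Raet1e -3.10 to -0.01, Raet1d -1.15 to 1.79 and H60b -2.95 to 2.05, the last on 3 counts. H60b turned to 2.05 without PLA replicate 2 and Raet1d to -1.15 without PLA4 replicate 2. Without PL1 replicate 1 and PLA4 replicate 2, H60c was at -1.78, Raet1e at -3.10, Raet1d at -1.15 and H60b at -2.98. Without PL1 replicate 2 and PLA4 replicate 1, Raet1e was at -0.0062. For PL12 against PL1, leaving out 1 library gave H60c 1.77 to 2.05, H60b 5.18 to 5.52, Raet1e 0.62 to 0.77, Raet1d 0.85 to 7.53 and Ulbp1 -0.59 to 0.14, which turned without PL1 replicate 1. Without PL1 replicate 1 and PLA4 replicate 2, Ulbp1 was at 0.16, Raet1e at 0.79 and H60b at 5.53. Without PL1 replicate 2 and PLA4 replicate 1, Ulbp1 was at -0.61, Raet1e at 0.61, Raet1d at 7.47 and H60b at 5.15. Raet1d had 0 counts in PL1 replicate 1, the PL1 library that was left. A line left with 1 library adds nothing to the estimated spread, which then comes from the lines with 2 libraries. The part of this in the changes was not tested.

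Deviations of same-numbered libraries had correlations of -0.194 to 0.0148 over 6 pairs of lines. The lowest were for PLA4 with PL1 (-0.194) and PLA with PL12 (-0.164). With the replicate block, H60c between PL12 and PL1 was at 1.93 (adjusted p = 0.0586), Chek1 had a largest adjusted p = 0.0623 and Pdia6 0.0525, and the within-family counts were 4208 and 3177. Depth limits H60b and Raet1d, at most 46 counts in any library.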
